A study of Mus musculus with 15 samples.

Results

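Cells divide by condensing their chromosomes, attaching them to a spindle, separating them and pinching apart. The 35 genes described here encode proteins of those steps: mitotic kinases, spindle checkpoint and kinetochore proteins, spindle proteins, condensin subunits, separase and cytokinesis proteins. They were listed by name and not by a threshold on these values, although earlier results of these data were known when they were chosen. All 35 lie on autosomes and have a row in the table of 44260 genes. Expression was measured by RNA-seq after ribosomal RNA depletion in organoids that model the cerebral cortex, at day 12 per the name of the deposited table. The organoids were grown from epiblast stem cells of SpretB6 hybrid mouse lines, although the label for tissue gives the starting stem cells. Each cell carries a genome copy from Mus spretus (Spret) and a copy from C57BL/6J (B6), and the 2 alleles of a gene were read from the same RNA.

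There were 3 libraries, with titles that end in C1 to C3 and called libraries 1 to 3 here, each with a Spret value and a B6 value per gene. No treatment is named in the labels, and they do not say whether the 3 came from separate cultures. The p-values therefore reflect only how far the difference between alleles varies over these 3 libraries. That variation is taken from the gene itself and from other genes of similar level, and it could be partly technical. All 438 tested genes of the X chromosome were higher from B6 and all 5 of the Y chromosome were higher from Spret, the pattern of male cells whose mother was B6. B6 is then the maternal copy of each autosome, and strain and parent of origin cannot be told apart. A further 12 induced pluripotent stem cell samples from 4 crosses are listed in the series and were not analysed here.

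In the developing cortex the dividing cells are radial glia, which line the ventricle, and intermediate progenitors, which divide away from it, while neurons have left the cycle. Entry into mitosis is driven by Cdk1, the spindle checkpoint delays separation until each chromosome is attached, and the anaphase-promoting complex then frees separase to cut cohesin. Most genes of this programme are transcribed late in the cycle, under the MuvB, B-Myb and FoxM1 factors, which act through a short promoter element called the cell cycle genes homology region (CHR).

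The values are reads per gene and allele that the authors normalised and rounded. They summed to 2337998, 2088788 and 2639912 for Spret and to 2701847, 2413876 and 3027078 for B6 in libraries 1, 2 and 3. The pattern of whole numbers that occur points to scaling factors of 1.156, 1.276 and 0.672, hence to about 2.02 M, 1.64 M and 3.93 M Spret reads and 2.34 M, 1.89 M and 4.51 M B6 reads (estimates), so library 3 had the most reads. Cortical neuron markers led the marker lists, with Map2 at 8885 ± 934 (both alleles summed, mean ± SD, n = 3). Radial glia and intermediate progenitor markers were led by Ptprz1 at 2367 ± 439 and Eomes at 1374 ± 248. The 7 pluripotency markers summed to 176, 197 and 116 in libraries 1, 2 and 3. Among them Klf4 read 95, 74 and 77, Pou5f1 57, 63 and 13, Nanog 1, 5 and 3, and Zfp42 0, 0 and 1. The 5 endoderm markers summed to 50, 93 and 33, the 6 mesenchyme markers to 421, 423 and 412, and the 6 ventral telencephalon markers to 286, 218 and 271.

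Mitosis genes were read from both alleles, and those called different went both ways. Ratios are log2(Spret value + 1) minus log2(B6 value + 1), so a positive ratio means higher from Spret, and the scale understates differences of low genes. All 35 genes averaged 10 or more across the 6 allele columns and were tested with limma, paired by library, with p-values adjusted over all 15985 tested genes. At an adjusted p of 0.05 the test called 3 of the 35 higher from Spret (Aurkb, Numa1 and Cenpf) and 5 higher from B6 (Ncapd2, Mki67, Top2a, Nusap1 and Racgap1). These 8 are 22.9% of the list, beside 28.4% called among 15456 tested autosomal genes, of which 7.78% were higher from Spret and 20.7% higher from B6. The share is near the background. All 8 calls depend on pairing the alleles within a library, and without it their limma adjusted p-values ran from 0.0519 to 0.294.

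The median ratio of the 35 genes was -0.08, with quartiles at -0.30 and 0.26, beside -0.13, -0.42 and 0.13 over all tested autosomal genes. It was -0.13, 0.12 and -0.13 in libraries 1, 2 and 3, so library 2 had the opposite sign. Ratios ran from -0.64 (Ncapd2) to 0.98 (Aurkb). The Ncapd2 ratio may be largely that of a small RNA gene in its exons, described below. Of the 35 genes, 2 differed by 1.5-fold or more, beside 22.5% of tested autosomal genes. The 3 Spret values all lay above the 3 B6 values in 4 genes, beside 6.96% of tested autosomal genes, and all below in 4, beside 16.8% (23.8% in either direction). Spret exceeded B6 within each of the 3 libraries in 9 genes and fell short of it in each in 12, beside 17.2% and 36.8% of tested autosomal genes.

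The whole table leaned toward B6. The genome build, mm10, is the B6 reference, and the part of this in the lean was not tested. Centring the ratios of a library on their autosomal median removed shifts of -0.13, -0.13 and -0.12. On that scale 5 mitosis genes were called higher from Spret and 3 higher from B6, beside 13.3% and 13.5% of tested autosomal genes. Ckap2 and Anln gained calls, and Nusap1 and Racgap1 lost theirs. The other 6 genes kept the same call on both scales.

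**Figure D1:**
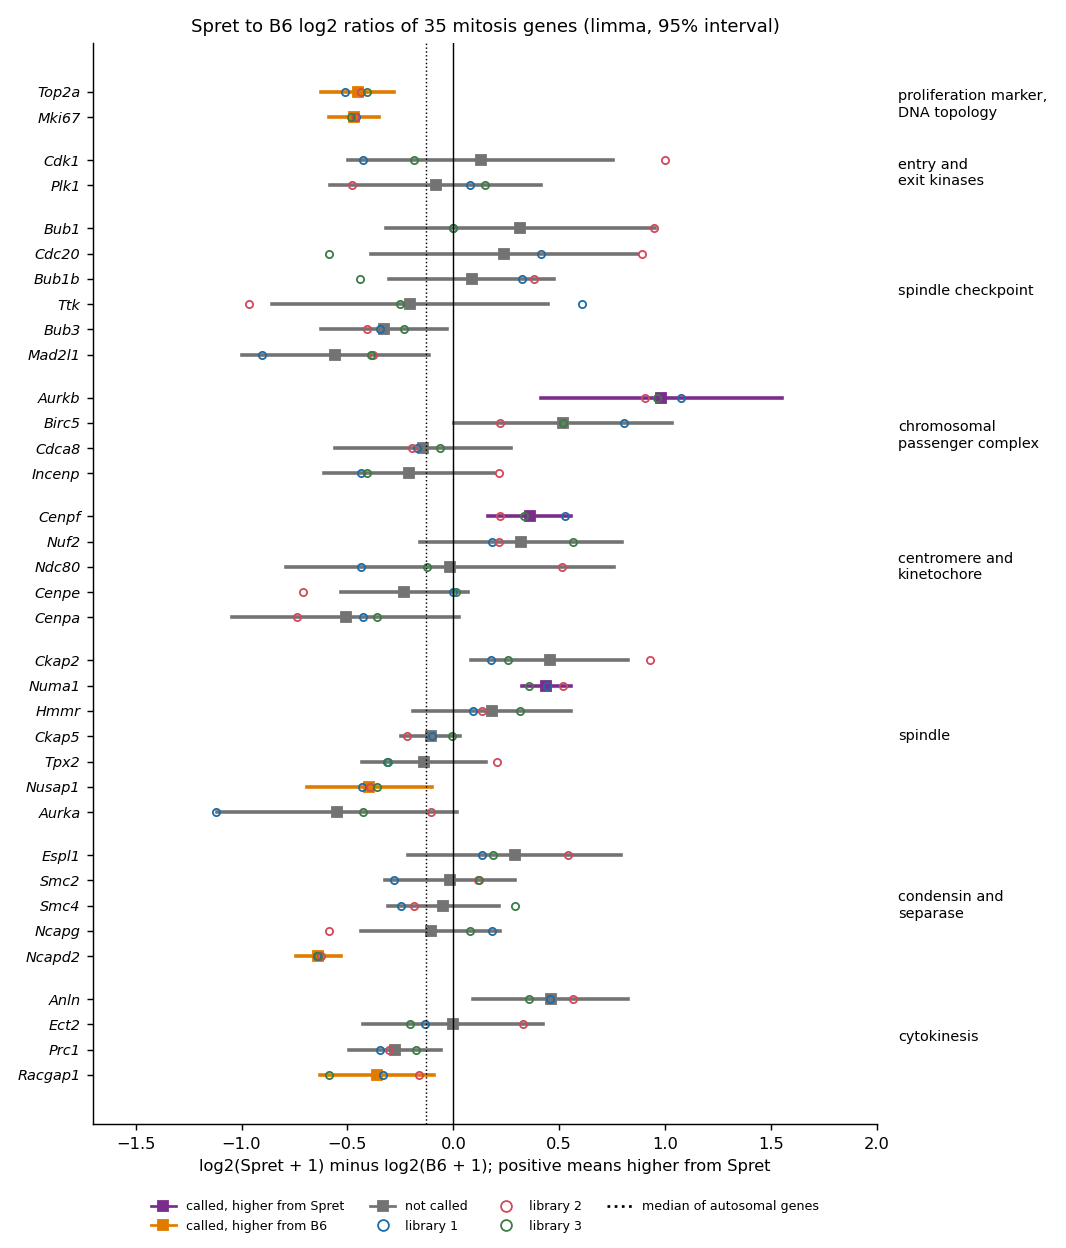
Spret to B6 log2 ratios of the 35 mitosis genes, grouped by role: squares and bars are the limma estimate and its 95% interval, open circles the 3 libraries, the dotted line the median of tested autosomal genes (-0.13). Purple marks the 3 genes called higher from Spret and orange the 5 called higher from B6; most intervals cross 0.

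Within the list, calls went with abundance. The share called among all tested genes at the same levels was not worked out. Of the 6 genes with the highest mean over both alleles, 5 were called, Ncapd2 among them, and of the 14 with a mean under 100, 1 was (Aurkb). The median standard error of the log2 ratio was 0.09 in the called genes and 0.19 in the others. Per kilobase of annotated exon, the mean level of both alleles ran from 3.80 (Ndc80) to 364 (Ncapd2), with a median of 33.0. The Ncapd2 value may include that of a small RNA gene within its exons (Scarna10), whose own value is most of it in size. If every Scarna10 read was also counted for Ncapd2, the remainder averaged 304 over both alleles, which would place it outside those 6 genes. That is 50.4 per kilobase, against 240.2 for Numa1. Only reads that show an allele are counted, so this level also depends on how many differences between the strains a transcript carries.

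**Figure D2:**
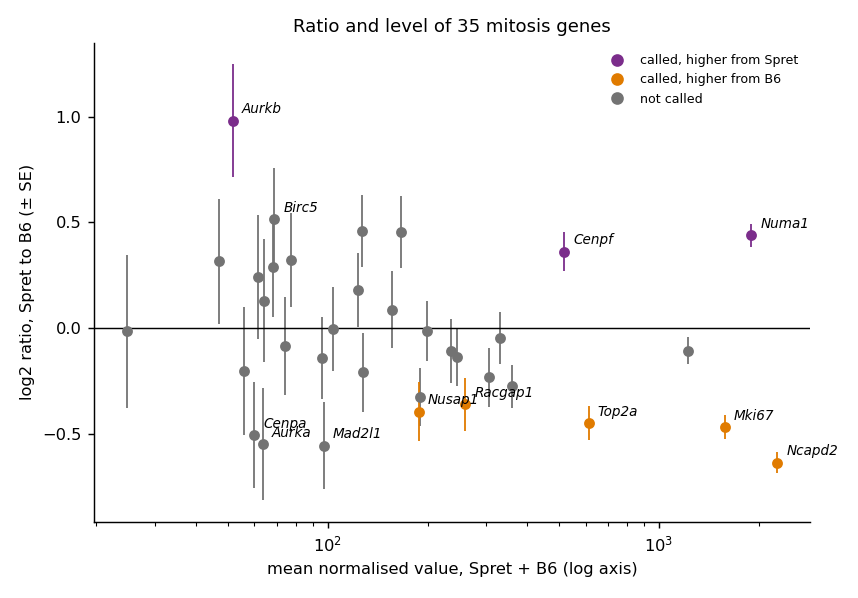
Log2 ratio (± SE) of each mitosis gene against its mean normalised value over both alleles, on a log axis. Called genes lie mostly at the right, where errors are small, with Aurkb the exception at a mean of 51.7.

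Mki67 and Top2a, the genes most used to mark dividing cells, were both higher from B6 by a similar amount. Mki67 encodes the Ki-67 protein, which coats mitotic chromosomes and keeps them apart, and lies on chromosome 7 (135689784 to 135716361, mm10). It read 742, 536 and 707 from Spret and 1020, 739 and 989 from B6 in libraries 1, 2 and 3. The B6 value was the higher in each library, although the highest Spret value passed the lowest B6 value by a little. The log2 ratio was -0.47 ± 0.06 (SE, limma adjusted p = 1.23e-05), which is 1.38-fold lower from Spret.

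Top2a encodes the topoisomerase that untangles sister chromatids and lies on chromosome 11 (98992943 to 99024189). It read 299, 219 and 257 from Spret and 426, 297 and 341 from B6. Again each library was lower from Spret, and the alleles overlapped only across libraries, by 2 units. The log2 ratio was -0.45 ± 0.08 (limma adjusted p = 6.17e-04). Both genes kept their calls with any library left out (adjusted p of at most 0.00264 for Mki67 and 0.0262 for Top2a) and lost them without limma's intensity trend (0.0592 and 0.0653).

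The kinases that start and time mitosis showed no call. Cdk1, the engine of mitotic entry, read 37, 31 and 28 from Spret and 50, 15 and 32 from B6, with library 2 pointing the other way from libraries 1 and 3. Its log2 ratio was 0.13, with a 95% interval from -0.50 to 0.75. Plk1, the polo-like kinase of spindle assembly and exit, read 36, 32 and 40 from Spret and 34, 45 and 36 from B6, a ratio of -0.08 (interval -0.58 to 0.41). A processed copy, Plk-ps1, shares 1813 aligned bases with Plk1 at 93.5% identity and averaged 10.2 per allele against 37.2 for Plk1, so reads could be split between them. Bub3, Mad2l1, Cdc20 and Cenpe also have near-identical copies, with means of at most 3.0 per allele or with no row, and their values are uncertain to that extent.

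Of 6 spindle checkpoint genes, 0 were called by limma, and 2 of them, Mad2l1 and Bub3, had an unadjusted p under 0.05. Mad2l1, the checkpoint protein that holds Cdc20, read 37, 42 and 38 from Spret and 70, 55 and 50 from B6. All 3 Spret values were below all 3 B6 values, with a log2 ratio of -0.56 ± 0.21 and a limma adjusted p = 0.0534. Bub3, the adaptor that brings Bub1 and BubR1 to kinetochores, was also separated, at 77, 79 and 97 from Spret and 98, 105 and 114 from B6 (ratio -0.33, limma adjusted p = 0.0885). Bub1, Bub1b (which encodes BubR1), Ttk (the Mps1 kinase) and Cdc20 (the activator of the anaphase-promoting complex) overlapped between alleles, with ratios of 0.32, 0.09, -0.20 and 0.24 and intervals between -0.86 and 0.95. Bub1 was equal in libraries 1 and 3, at 30 and 21 from either allele, and read 26 from Spret and 13 from B6 in library 2. Cdc20 read 31, 51 and 21 from Spret and 23, 27 and 32 from B6, so library 3 was opposite to libraries 1 and 2.

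The chromosomal passenger complex, which corrects faulty attachments and prepares the cleavage furrow, held the gene with the largest ratio toward Spret of the list. Its kinase gene Aurkb lies on chromosome 11 (69045647 to 69051664) and read 39, 29 and 36 from Spret and 18, 15 and 18 from B6. The lowest Spret value was 1.61 times the highest B6 value. The log2 ratio was 0.98 ± 0.27 (limma adjusted p = 0.0119), or 1.97-fold higher from Spret, with a 95% interval from 1.33-fold to 2.93-fold. The B6 values stand for only about 16, 12 and 27 reads, and the call ended without library 1 (adjusted p = 0.0886) or library 3 (0.0718), at ratios of 0.93 and 0.99, and with no filter on low values (0.0722).

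The other 3 subunits were not called. Birc5, which encodes survivin, read 55, 27 and 42 from Spret and 31, 23 and 29 from B6, higher from Spret in 3 of 3 libraries but overlapping across them (ratio 0.52 ± 0.24, limma adjusted p = 0.12). Incenp, the scaffold that activates the kinase, read 64, 64 and 48 from Spret and 87, 55 and 64 from B6 (ratio -0.21). Cdca8, the gene of borealin, read 47, 47 and 43 from Spret and 53, 54 and 45 from B6 (ratio -0.14). Of its exon bases 4.48% overlap 9930104L06Rik on the opposite strand, which read 57, 85 and 56 from Spret and 86, 89 and 83 from B6. Differences in ratio between the 4 subunits were not tested.

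Among 5 centromere and kinetochore genes, Cenpf was called. Cenpf encodes a large protein of the outer kinetochore and lies on chromosome 1 (189640606 to 189688086). It read 355, 265 and 255 from Spret and 246, 227 and 202 from B6. Every Spret value exceeded every B6 value, and the log2 ratio was 0.36 ± 0.09 (limma adjusted p = 0.0079), or 1.28-fold higher from Spret. The call ended without library 1, in which its ratio was highest, at a ratio of 0.28 (adjusted p = 0.127), and also without limma's trend (0.126) and with no filter on low values (0.142).

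Cenpe, the kinesin that carries chromosomes to the spindle equator, was equal in library 1 at 184 from either allele and lower from Spret in library 2, at 108 from Spret and 177 from B6. In library 3 it read 135 from Spret and 134 from B6, and its ratio over the 3 was -0.23 (interval -0.53 to 0.07). Cenpa, the histone H3 variant that marks centromeres, read 34, 20 and 20 from Spret and 46, 34 and 26 from B6, lower from Spret in 3 of 3 libraries and not called (ratio -0.51, limma adjusted p = 0.142). Nuf2 and Ndc80 encode partners in the complex that grips microtubules. Nuf2 was higher from Spret in 3 of 3 libraries, at 50, 42 and 36 from Spret and 44, 36 and 24 from B6 (ratio 0.32, limma adjusted p = 0.301). Ndc80 was the lowest gene of the list, at 16, 9 and 10 from Spret and 22, 6 and 11 from B6, and its value is uncertain because the gene Gm1976, which averaged 66.3 per allele against 12.3 for Ndc80, shares 944 aligned bases with it at 92.3% identity.

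**Figure D3:**
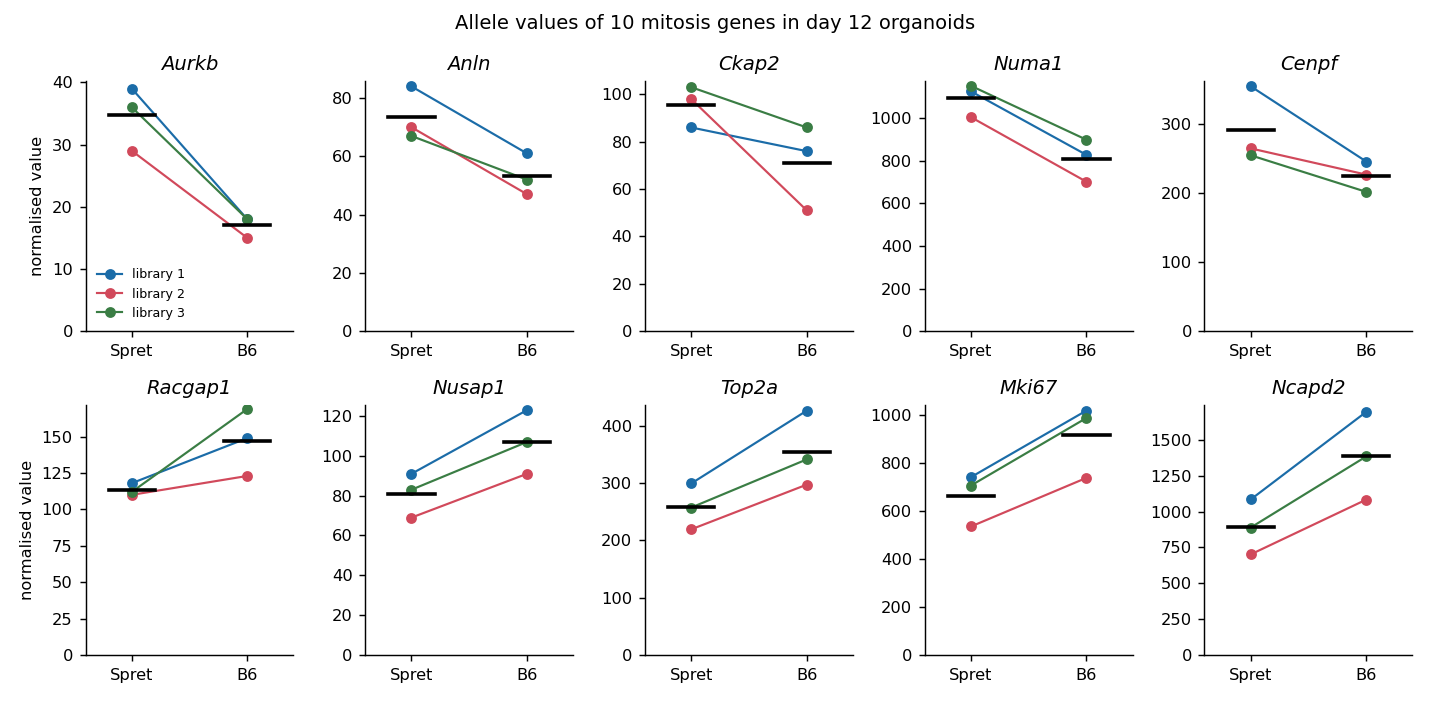
Normalised values of the 10 mitosis genes called with or without centring; each line joins the Spret and B6 value of a library, black bars are means over 3 libraries, and each axis starts at 0. Lines slope down to B6 in the upper row and up to B6 in the lower row in all 3 libraries.

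The spindle genes held the most abundant call toward Spret. Numa1 encodes NuMA, which anchors dynein at spindle poles and the cell cortex and stays in the nucleus between divisions, so its transcript is not limited to dividing cells. It lies on chromosome 7 (101934111 to 102014964) and read 1125, 1004 and 1151 from Spret and 827, 701 and 898 from B6. Every Spret value exceeded every B6 value, and the log2 ratio was 0.44 ± 0.05 (limma adjusted p = 2.03e-05), or 1.36-fold higher from Spret. Without limma's trend its adjusted p was 0.0717.

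Nusap1, a protein that bundles spindle microtubules near chromosomes, was higher from B6, at 91, 69 and 83 from Spret and 123, 91 and 107 from B6 (ratio -0.40 ± 0.14, limma adjusted p = 0.0427). Its call ended without any of the 3 libraries (adjusted p from 0.085 to 0.18), with centred ratios (0.161), without limma's trend (0.0814) and with no filter (0.111). Ckap2, a spindle microtubule protein, read 86, 98 and 103 from Spret and 76, 51 and 86 from B6. It was higher from Spret in 3 of 3 libraries (ratio 0.45 ± 0.17, limma adjusted p = 0.0599), with an adjusted p of 0.02 when centred. Its ratio rested in large part on library 2, and without that library it was 0.22 (adjusted p = 0.388).

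Aurka, the kinase of spindle poles, and Tpx2, its activator, were not called. Aurka read 22, 26 and 28 from Spret and 49, 28 and 38 from B6, lower from Spret in 3 of 3 libraries (ratio -0.55, interval -1.12 to 0.02), and Tpx2 read 127, 97 and 120 from Spret and 158, 84 and 149 from B6 (ratio -0.14). Ckap5, the microtubule polymerase chTOG, was abundant and close to even, at 658, 480 and 638 from Spret and 705, 558 and 641 from B6. Its ratio of -0.11 had the narrow interval of -0.25 to 0.03. Hmmr, a spindle pole protein, read 81, 55 and 60 from Spret and 76, 50 and 48 from B6 (ratio 0.18, interval -0.19 to 0.55).

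Condensin, the ring that compacts mitotic chromosomes, was represented by its shared Smc2 and Smc4 subunits and by Ncapd2 and Ncapg of condensin I. Smc2 read 106, 89 and 99 from Spret and 129, 82 and 91 from B6, and Smc4 read 170, 138 and 179 from Spret and 202, 157 and 146 from B6. Neither was called, with ratios of -0.01 and -0.05 and intervals between -0.32 and 0.29. Ncapg read 132, 79 and 134 from Spret and 116, 119 and 127 from B6 (ratio -0.11, interval -0.43 to 0.22). Of its exon bases 13.4% overlap Lcorl on the opposite strand, which averaged 1050 over both alleles and was higher from B6 (ratio -0.38).

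Ncapd2, on chromosome 6 (125168007 to 125191701), had the highest value of the list and the largest ratio toward B6, but its exons contain a small RNA gene. It read 1084, 701 and 888 from Spret and 1695, 1083 and 1384 from B6, lower from Spret in each library, with a log2 ratio of -0.64 ± 0.05 (limma adjusted p = 9.07e-08). The gene Scarna10, a small Cajal body RNA that guides RNA modification, shares 237 exon bases with Ncapd2 on the same strand. Scarna10 read 970, 624 and 788 from Spret and 1485, 895 and 1161 from B6, which in size is most of the Ncapd2 value in every library. The overlapping gene Gm28967 carries the same 6 values as Scarna10, so reads there appear to have been counted for both. The handling of reads that fall in overlapping genes is not stated.

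If every Scarna10 read was also counted for Ncapd2, the remainder is 114, 77 and 100 from Spret and 210, 188 and 223 from B6. On those values, an alternative chosen after seeing the data, the log2 ratio was -1.10 ± 0.12 (limma adjusted p = 4.99e-06), further toward B6 and separated between alleles. Summed over all 35 genes, Spret gave 47.3% ± 0.445 of the values (SD, n = 3), and without Ncapd2 49.2% ± 0.315, beside 47.7% ± 0.139 over all autosomal genes.

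Espl1, the gene of separase, which cuts cohesin at anaphase, read 32, 50 and 32 from Spret and 29, 34 and 28 from B6. It was higher from Spret in 3 of 3 libraries and not called (ratio 0.29, limma adjusted p = 0.383).

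Of 4 cytokinesis genes, Racgap1 was called. It encodes the GTPase-activating part of centralspindlin and lies on chromosome 15 (99620496 to 99651656). It read 118, 110 and 112 from Spret and 149, 123 and 169 from B6, with no overlap (ratio -0.36 ± 0.13, limma adjusted p = 0.0423). The call ended without library 1 (0.16), without library 3 (0.307, ratio -0.25), with centred ratios (0.179), without limma's trend (0.152) and with no filter (0.217).

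Ect2, whose protein binds centralspindlin, was even, at 61, 48 and 45 from Spret and 67, 38 and 52 from B6 (ratio near 0, interval -0.43 to 0.42). Prc1, which bundles the midzone microtubules, was separated between alleles and missed the threshold, at 179, 149 and 159 from Spret and 228, 184 and 180 from B6 (ratio -0.28 ± 0.10, limma adjusted p = 0.0537). Of its exon bases 11.1% overlap Rccd1 on the opposite strand, which was itself higher from B6 (ratio -0.68), and whether counting used strand is not given. Anln, the gene of anillin, which links the contractile ring to the membrane, was separated the other way. It read 84, 70 and 67 from Spret and 61, 47 and 52 from B6 (ratio 0.46 ± 0.17, limma adjusted p = 0.0551, and 0.019 when centred).

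For the 27 genes that were not called, 24 had 95% intervals that stayed within 2-fold in both directions. The intervals of Aurka, Cenpa and Birc5 reached past 2-fold, so these data leave room for differences of that size in those 3. Unadjusted p-values were under 0.05 in 14 of the 35 genes, 6 of them not called, beside 39.7% of tested autosomal genes.

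The 8 called genes had 16 flanking tested genes, of which 3 were called in the same direction (18.8%), beside 22.2% around all called autosomal genes.

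Promoter sequence was not used in choosing the list. RefSeq promoters of GRCm38.p6, from 250 bases before to 50 after the annotated start, were found for 31 of the 35 genes, all except Incenp, Aurkb, Tpx2 and Smc4. A CHR match (TTTGAA or TTCGAA on either strand) was present in 25 of the 31 (80.6%), beside 21.7% of 27025 genes with a promoter. CCAAT, the box bound by NF-Y, on either strand, was present in 24 (77.4%, beside 41.1%), and both together in 23 (74.2%, beside 8.61%). Neither motif contains the other. In 22 of the 25 genes the nearest CHR match started within 60 bases of the annotated start. These 22 are 71.0% of the 31 promoters, beside 6.79% of all genes with a CHR match starting no more than 60 bases before the start or after it.

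**Figure D4:**
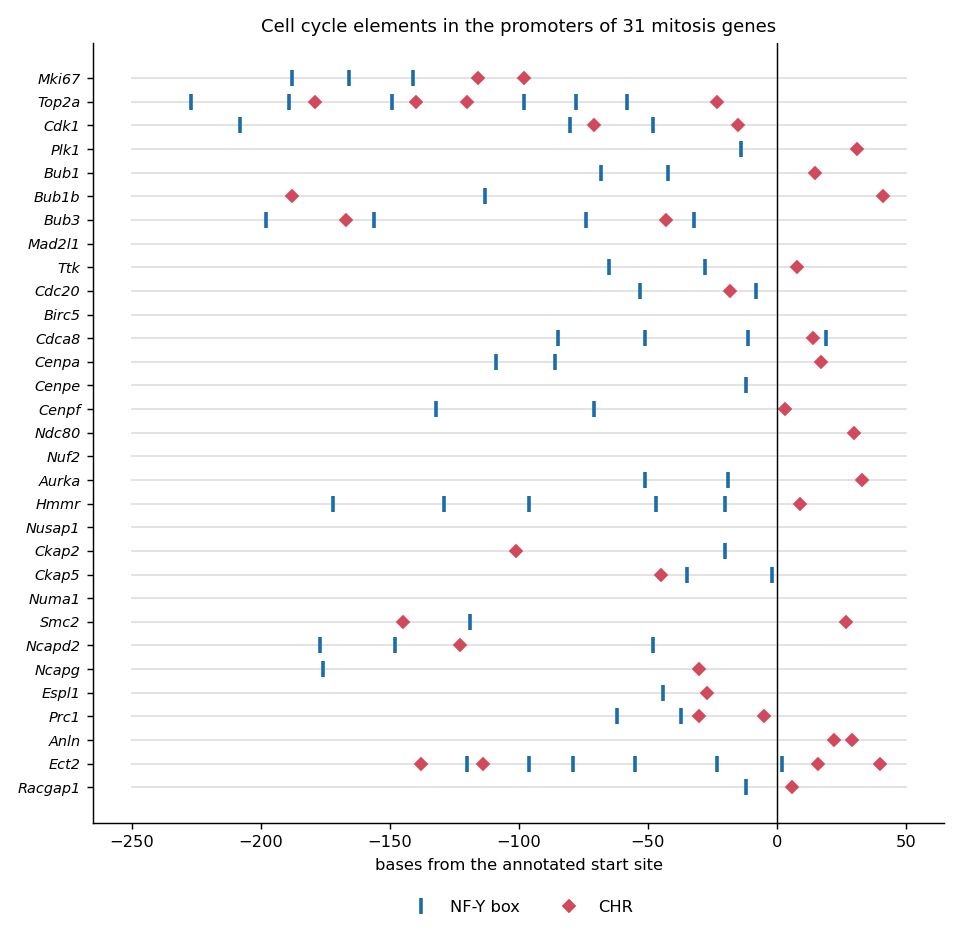
Positions of CHR matches (diamonds) and CCAAT boxes (bars, labelled NF-Y box) in 31 promoters, in bases from the annotated start; genes with a second annotated start carry marks from both. In 22 genes the nearest CHR match lies within 60 bases of the start.

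Windows around the CHR match nearest to the start are shown for the called genes that have one and for 4 kinase and checkpoint genes that were even or overlapping, to compare the element between them. They are written 5′ to 3′ along the gene, with the CHR match in capitals (TTCAAA is TTTGAA read on the opposite strand). They come from the B6 reference, and Spret letters were not used here.
Mki67, chr7:135716455-135716494, minus strand: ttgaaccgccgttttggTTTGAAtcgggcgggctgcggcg
Top2a, chr11:99024190-99024229, minus strand: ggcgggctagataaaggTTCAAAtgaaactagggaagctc
Cenpf, chr1:189688062-189688101, minus strand: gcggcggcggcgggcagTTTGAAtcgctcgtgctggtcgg
Racgap1, chr15:99651629-99651668, minus strand: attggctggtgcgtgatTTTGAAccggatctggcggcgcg
Ncapd2, chr6:125191687-125191726, minus strand: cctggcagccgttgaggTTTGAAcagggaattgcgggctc
Cdk1, chr10:69352905-69352944, minus strand: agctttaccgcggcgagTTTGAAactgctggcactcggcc
Plk1, chr7:122159448-122159484, plus strand: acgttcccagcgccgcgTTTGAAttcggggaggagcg
Cdc20, chr4:118437339-118437378, minus strand: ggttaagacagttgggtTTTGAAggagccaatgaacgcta
Ttk, chr9:83834679-83834718, plus strand: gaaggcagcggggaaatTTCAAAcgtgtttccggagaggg

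Relative to the annotated start, the match began at -98 in Mki67, -23 in Top2a, 3 in Cenpf, 6 in Racgap1, -123 in Ncapd2, -15 in Cdk1, 31 in Plk1, -18 in Cdc20 and 8 in Ttk. Among the genes without a CHR match, Numa1, Nusap1, Mad2l1, Birc5 and Nuf2 had neither motif and Cenpe had CCAAT alone. The RefSeq start used for Numa1 lies 35.7 kb inside the gene as annotated by GENCODE and that of Cdca8 2.39 kb inside, so those windows are not at the outermost start, while the other entries lie within 272 bases of it. The Mad2l1 window ends at 66535270 on chromosome 6, before the GENCODE start at 66535390, so motifs at that start were not searched.

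Top2a had the most matches, 4 CHR and 6 CCAAT, and is shown whole with all of them in capitals (chr11:99024140-99024439, minus strand, GRCm38.p6).
Top2a: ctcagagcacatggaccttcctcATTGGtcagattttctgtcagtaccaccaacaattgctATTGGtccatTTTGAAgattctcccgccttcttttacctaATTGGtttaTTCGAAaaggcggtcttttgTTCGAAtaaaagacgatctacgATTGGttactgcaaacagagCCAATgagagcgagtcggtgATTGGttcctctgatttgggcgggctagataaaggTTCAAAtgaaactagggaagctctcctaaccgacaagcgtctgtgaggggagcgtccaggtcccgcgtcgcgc

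The level of the mitosis genes, summed over both alleles, was highest in library 1, and which library was lowest depended on the scaling. The 35 genes summed to 13713, 10450 and 12274 in libraries 1, 2 and 3, or 1.13, 0.860 and 1.01 times their mean, and without Ncapd2 to 10934, 8666 and 10002. As shares of each library's summed values they stood at 1.13, 0.966 and 0.902 times their mean, which makes library 3 the lowest. In the normalised values, library 1 was the highest in 25 of the 35 genes and library 2 the lowest in 22. In bulk samples, fewer dividing cells and less RNA per cell cannot be told apart, and with 1 library each these differences were not tested.

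Radial glia markers stood at 1.04, 0.866 and 1.10 times their mean in the same libraries, intermediate progenitor markers at 1.13, 0.904 and 0.968, and cortical neuron markers at 1.00, 1.01 and 0.992. Hem and choroid plexus markers, led by Ttr, stood at 2.05, 0.579 and 0.368, with 7 of the 8 highest in library 1 and Wnt2b tied between libraries 1 and 3. All autosomal values together stood at 0.994, 0.888 and 1.12. The part of these markers in the allelic ratios was not tested.

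**Figure D5:**
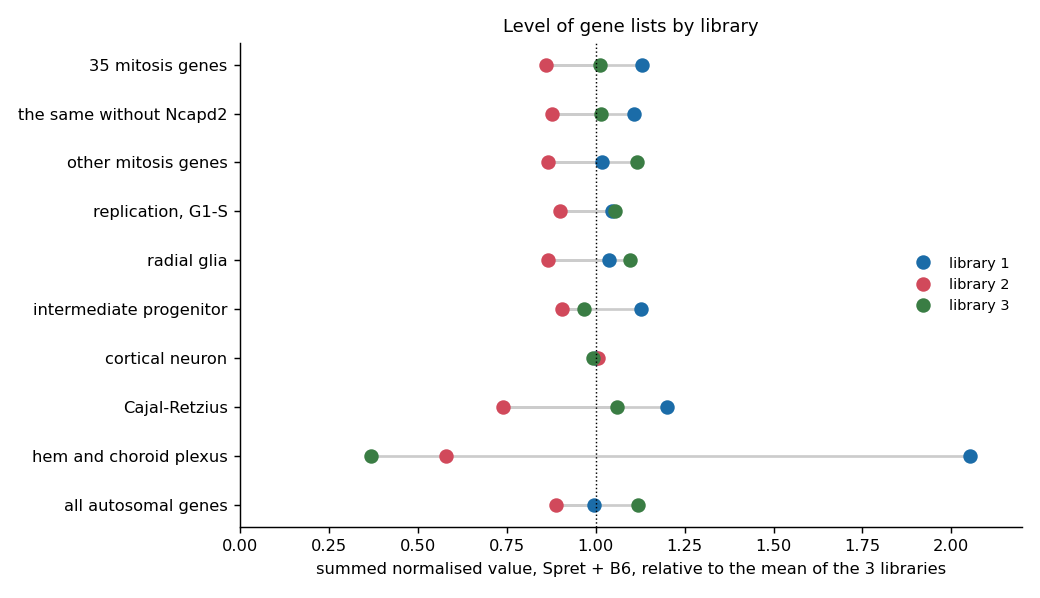
Summed normalised values (Spret + B6) of gene lists in each library, relative to the mean of the 3 libraries. The 35 mitosis genes sit at 1.13, 0.860 and 1.01, while the hem and choroid plexus list spreads from 0.368 to 2.05.

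Of 119 further genes of the mitotic machinery, 117 had a row and 116 were tested, and 24 were called (20.7%). Of these, 6 were higher from Spret and 18 from B6, or 14 and 10 with centred ratios. Their median ratio was -0.13. The 18 genes of the anaphase-promoting complex and its regulators held 1 call toward Spret and 6 toward B6, but 3 and 2 with centred ratios. The 26 further kinetochore genes held 3 toward Spret and 2 toward B6, or 4 and 1 when centred. Over all tested autosomal genes 7.78% were called toward Spret and 20.7% toward B6, and roles were not tested against each other.

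The most abundant calls toward Spret were Ube2s, the ubiquitin enzyme that extends chains for the anaphase-promoting complex (0.63 ± 0.10), the spindle protein gene Spag5 (0.59 ± 0.17), Zwilch of the kinetochore complex that recruits dynein (1.06 ± 0.19), the inner kinetochore gene Cenpq (0.97 ± 0.22) and Spdl1, a dynein adaptor at kinetochores (1.10 ± 0.23). These are log2 ratios ± SE with limma adjusted p-values of at most 0.0159. Zwilch read 96, 59 and 89 from Spret and 40, 36 and 37 from B6, and Spdl1 read 54, 52 and 51 from Spret and 22, 23 and 27 from B6, without overlap in either.

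Toward B6 the most abundant were Clasp1, which stabilises microtubule ends (-0.55 ± 0.05), Zwint, a kinetochore adaptor (-0.40 ± 0.06), Anapc5 and Anapc1 of the anaphase-promoting complex (-0.31 ± 0.07 and -0.22 ± 0.07), and Cenpc1, the gene of the inner kinetochore protein CENP-C (-0.36 ± 0.11), with limma adjusted p-values of at most 0.0271. Anapc5, Anapc1 and Cenpc1 lost their calls with centred ratios (0.0665, 0.321 and 0.102). Clasp1 read 735, 656 and 819 from Spret and 1072, 951 and 1222 from B6.

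Genes of DNA replication and the G1-S step, which precede mitosis in the cycle, had 10 of 43 called (23.3%), 2 higher from Spret and 8 higher from B6. The most abundant called were Cdk4 (0.25 ± 0.05) and Chaf1b (0.47 ± 0.16) toward Spret, and Rfc5 (-0.88 ± 0.14) and Mcm6 (-0.41 ± 0.13) toward B6. Mcm6 lost its call with centred ratios (limma adjusted p = 0.125). CHR matches were present in 6 of 34 promoters of these genes (17.6%) and in 34 of 94 of the further mitosis genes (36.2%). CCAAT was present in 22 of 34 promoters of the replication genes (64.7%) and in 48 of 94 of the further mitosis genes (51.1%). These CCAAT shares lie nearer to the 77.4% of the 31 promoters described above than the CHR shares do to their 80.6%. Both motifs together were present in 14.7% of the replication promoters and 21.3% of the further mitosis promoters, beside 74.2% of the 31.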

How the data were processed

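The authors deposited a table of allele-specific normalised read numbers per gene, 1 Spret and 1 B6 column for each of 3 day 12 organoid libraries. Its values are a score, normalised and rounded to whole numbers by the authors, per the file headers and the table's name. The submitters' processing notes name mm10 as the build. The aligner, allele assignment, counter, strand use and normalisation method are not given in the sources used here. The labels plan 80 M reads per sample.

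The values are not read counts, so log2(value + 1) was tested in R 4.3.3 with limma 3.58.1, fitting a term for each library and one for the allele, with the variance trended on intensity, over 15985 genes averaging 10 or more (2 residual and 12.3 prior degrees of freedom). Tests were two-sided, with Benjamini-Hochberg adjustment. The pairing of alleles comes from their shared RNA. The test was also run on simulated data, whose noise did not model the scaling factors of the libraries. That run therefore does not bear on how far the calls here hold.

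Positions and exon overlaps came from GENCODE M21 (GRCm38), and near-identical copies from BLAST 2.17.0 over its transcripts (at least 90% identity over 400 bases). Scaling factors were estimated from which whole numbers occur. The members and gene lists were chosen with earlier results of these data known. All 35 members were reported, with the 5 most abundant called genes per direction of the further mitosis list, the 2 most abundant of the replication list, and marker genes. The exceptions are pluripotency genes, Ttr, Wnt2b, and genes overlapping or copying a member, named after their values were seen. Alternatives covered the pseudocount, the filter, centring, the trend, the pairing and leaving out each library.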

Additional observations from a re-analysis of the deposited data

How the results depend on the processing

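The number of mitosis genes higher from Spret was 3 and of those higher from B6 was 5. With centred ratios these were 5 and 3, without limma's trend 1 and 1, with no filter on low values 1 and 3, and with no replicate block 0 and 0, where the pairing of alleles within a library is dropped. Leaving out 1 library gave 1 to 3 and 3 to 4. Over all autosomal genes the counts of 1202 and 3193 were 2050 and 2091 with centring, 463 and 1312 when the trend was dropped, 180 and 542 with no filter, 261 and 826 with no replicate block, and 573 to 1000 and 1646 to 2628 without 1 library. The further mitosis genes had 6 and 18, then 14 and 10 with centring, 6 and 8 when the trend was dropped, 1 and 3 with no filter, 3 and 3 with no replicate block, 3 and 14 at a mean of at least 50, and 4 to 7 and 8 to 14 without 1 library. The replication genes had 2 and 8, then 4 and 4, 0 and 4, 0 and 1, 0 and 3, 2 and 5, and 0 to 1 and 3 to 6 in the same order. The cause was not tested. By design the unpaired fit adds the spread between libraries to the error. The filters change how many genes are tested and also which genes set the variance trend. With no filter the standard error of Mki67 was 0.0301, against 0.0554, and its limma adjusted p was 0.0153, against 1.23e-05.

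With centring, ratios of genes that were not called changed sign in Plk1 (0.0397), Ndc80 (0.11), Ckap5 (0.0157), Smc2 (0.11), Smc4 (0.0766), Ncapg (0.0156) and Ect2 (0.12), none past the threshold. Without 1 library the ratios ran from -0.31 to 0.41 in Cdk1, -0.20 to 0.11 in Plk1, -0.06 to 0.35 in Bub1b, -0.61 to 0.18 in Ttk, -0.085 to 0.65 in Cdc20, -0.35 to 0.0053 in Cenpe, -0.28 to 0.19 in Ndc80, -0.082 to 0.12 in Smc2, -0.22 to 0.0537 in Smc4, -0.25 to 0.13 in Ncapg and -0.17 to 0.10 in Ect2, none of them called. The pseudocount of 0.5 changed no call among the 35 genes, and a mean of at least 50 added Anln and Prc1 and left Aurkb untested. The median ratio ran from -0.11 to 0.04 over all alternatives, the CHR count was 24 with TTTGAA alone, and libraries 2 and 3 stood at 0.966 and 0.902 of the mean level as shares of each library, against 0.860 and 1.01, so the lowest library changed.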
